A study of Mus musculus with 35 samples.

Results

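The comparison described here is that of primary tumor cells 7 days after the switch of diet, in the 2 libraries labelled Smad4 on against the 3 labelled Smad4 off. These 5 libraries were chosen by their labels of organ, day and *Smad4* status from 35 RNA-seq libraries, of which 17 carry the on label and 18 the off label. The cells were KC-shSmad4 cells, lines derived from mouse pancreatic ductal adenocarcinoma (PDAC) in which Ptf1a-Cre acted in the pancreas to start the tumors. They carry the constitutive reporter mKate2 and a doxycycline (Dox)-inducible, GFP-linked short hairpin RNA against *Smad4*, most of the lines had lost *Cdkn2a* and *Cdkn2b*, and all were transduced with luciferase.

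In both groups, 100000 cells were injected into the pancreas tail of female nude (Foxn1nu) hosts of 6 to 8 weeks of age that were fed Dox chow, a diet meant to keep *Smad4* silenced while the tumors formed. By its label, the group Smad4 on had Dox withdrawn 4 weeks after injection, with mKate2+ cells sorted 7 days later, and the group Smad4 off stayed on Dox. Dox and the *Smad4* label therefore cannot be told apart. Nude mice lack the thymus and with it most T cells, and the labels do not tell which cell line or hairpin gave each library. Library numbers are mouse numbers, so p-values measure the spread between tumors of different hosts.

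SMAD4 is the shared partner of the receptor-activated SMADs. Ligands of the transforming growth factor-β (TGFβ) and activin branches act through SMAD2 and SMAD3, and the bone morphogenetic proteins (BMPs) through SMAD1 and SMAD5, and both branches bring SMAD4 to the chromatin of their target genes. In PDAC, *SMAD4* is among the most frequently lost tumor suppressors, and TGFβ output in pancreatic cells is known for cell-cycle arrest, matrix production and the epithelial-to-mesenchymal transition (EMT).

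The libraries held 14950871 to 17906083 counts on genes, so that 3 counts correspond to 0.168 to 0.201 CPM (counts scaled to a common library total), a floor that covers counting error only. CPM values below are scaled by edgeR's TMM factors unless stated to be unscaled. The correlation of log2 CPM was 0.972 to 0.978 among the libraries labelled off, 0.974 between those labelled on, and 0.953 to 0.963 across labels. The first principal component held 47.4% of the variance and separated the labels.

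The targeted gene went against the labels. *Smad4* was at 105, 113 and 93.7 CPM in the libraries labelled off and at 22.6 and 20.1 CPM in those labelled on, a log2 fold change of -2.28 (SE 0.13; adjusted p = 0.00325, from the quasi-likelihood test of edgeR, adjusted by Benjamini-Hochberg). The groups did not overlap, and the libraries labelled on held the lower level. The same held over the whole series, with 14.4 to 23.2 CPM in the 17 libraries labelled on and 77.9 to 132 CPM in the 18 labelled off. Whether the 2 labels are exchanged in the deposited data was not tested, so which libraries kept the hairpin induced is not established here. Smad4 on and off are therefore used below as labels alone. Higher and lower refer to the libraries labelled Smad4 on, which are the libraries with less *Smad4* mRNA. None of the other SMAD genes tested was called: *Smad2*, *Smad3*, *Smad1* and *Smad5* had log2 fold changes of -0.13, 0.15, -0.11 and -0.12.

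Lead genes were a mixed group of secreted, matrix and receptor genes on the higher side, and neuronal tubulin, matrix enzyme and mitotic genes on the lower side. Of 14439 genes tested, 138 (0.956%) were higher and 54 (0.374%) were lower, 192 in all (1.33%). A gene was called where its levels differed more than 2-fold with an adjusted p under 0.05. All 192 called genes had groups that did not overlap, as did 3136 genes (21.7%) with both libraries labelled on above and 3132 (21.7%) with both below. The median log2 fold change over all genes tested was 0.01. The counts rest on few libraries: without the first library labelled on, 21 genes were higher and 2 lower, without the second 50 and 12, and without the third library labelled off 33 and 14. No called gene turned its direction in these fits, which could hardly happen because the groups of called genes did not overlap. Of the 47 called genes that are named by a rule below, 15 stayed called whichever library was left out, and the other 32 lost the call in at least 1 fit.

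**Figure D1:**
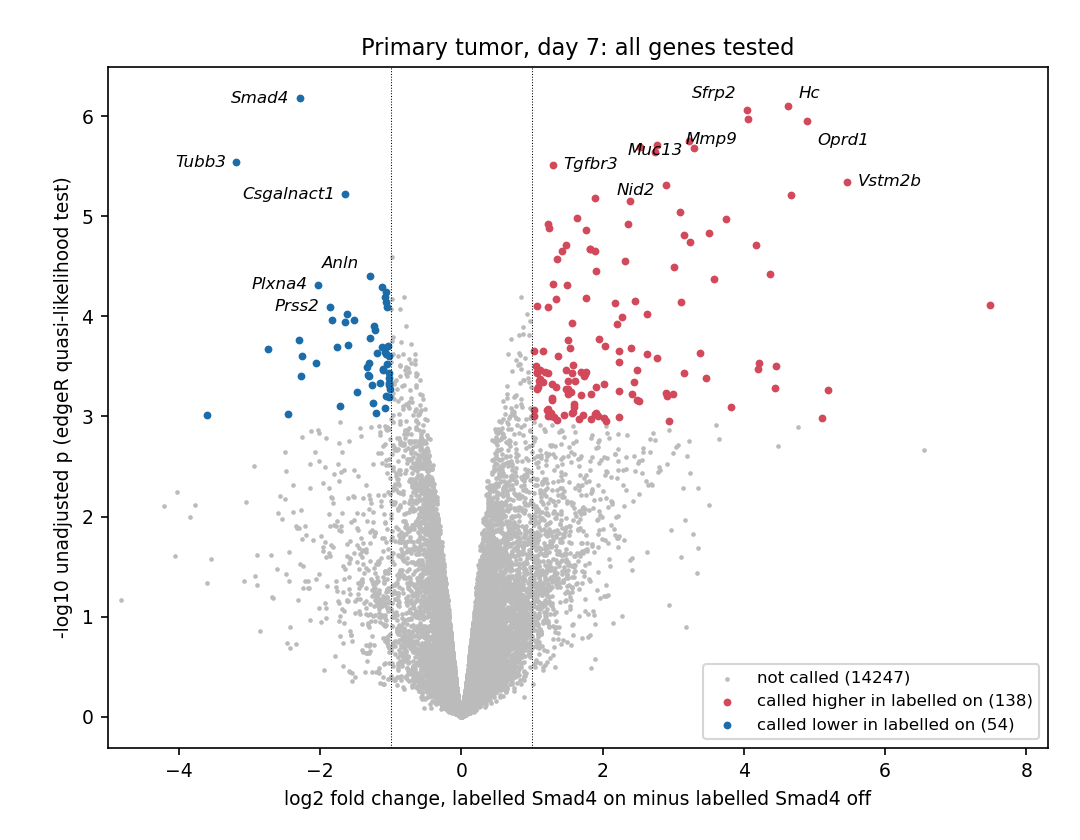
Each point is 1 of 14439 genes, with the log2 fold change of labelled Smad4 on minus labelled off on the x axis and -log10 of the unadjusted p on the y axis, and dotted lines at a 2-fold change. The 138 genes called higher reach farther from 0 than the 54 called lower, among which *Smad4* and *Tubb3* had the lowest p.

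Promoters of lead genes are shown first because the data concern a DNA-binding factor: SMAD proteins bind the short SMAD box, CAGAC, or GTCTG on the other strand. RefSeq (GRCm38.p6) gave a start site for 27025 genes, and the 250 bases before it were searched on both strands. An entry was found for 97 of the 138 higher and 44 of the 54 lower genes. Of the 3 higher genes with the lowest p that have an entry, *Sfrp2* and *Oprd1* hold the box once each and *Hc* does not. Of the 3 lower genes, *Tubb3* holds it once, and *Anln* and *Angptl2* do not. The box, in capitals here, lies early in the *Sfrp2* window and near the middle of the *Oprd1* window:
Sfrp2 (chr3:83766071-83766320, plus strand): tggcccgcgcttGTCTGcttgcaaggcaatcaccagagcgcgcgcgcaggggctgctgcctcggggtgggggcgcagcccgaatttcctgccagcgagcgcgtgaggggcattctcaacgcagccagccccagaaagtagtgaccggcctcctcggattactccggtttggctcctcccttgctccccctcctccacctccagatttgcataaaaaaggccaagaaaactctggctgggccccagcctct
Oprd1 (chr4:132144487-132144736, minus strand): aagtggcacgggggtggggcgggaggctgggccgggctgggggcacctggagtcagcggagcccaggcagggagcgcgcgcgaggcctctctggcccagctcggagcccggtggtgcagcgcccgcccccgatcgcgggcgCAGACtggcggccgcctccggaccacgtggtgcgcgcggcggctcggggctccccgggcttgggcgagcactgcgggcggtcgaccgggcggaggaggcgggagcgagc
The box is a short one. It was in 42.2% of all promoters, 41% of those of genes tested, 52.7% of the 129 promoters of genes called higher and 40.8% of the 49 of genes called lower. A match is a description of letters and not of binding.

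Among the higher genes, the terminal complement component *Hc* (C5; ENSMUSG00000026874, chr2:34983331-35061438) had the lowest p. It was at 0.415, 0.631 and 0.479 CPM in the libraries labelled off and at 12.9 and 12.6 CPM in those labelled on, a log2 fold change of 4.62 (SE 0.27; adjusted p = 0.00325 in edgeR). *Hc* was near the counting floor in the one group and plainly counted in the other. *Sfrp2*, a secreted binder of Wnt ligands (chr3:83766321-83774316), was at 6.64, 4.65 and 3.77 CPM against 79.2 and 86.6 CPM, a log2 fold change of 4.04. *Mmp9*, the type IV collagenase gelatinase B (chr2:164940780-164955850), was at 13.9, 11.2 and 10.6 CPM against 240 and 157 CPM, a log2 fold change of 4.06.

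The δ-opioid receptor gene *Oprd1* was at 0.474, 0.287 and 0.419 CPM against 13.1 and 10.7 CPM (log2 fold change 4.90). *Vstm2b* had the largest change of the 12 leading higher genes, from 0.533, 0.287 and 0.838 CPM to 30.2 and 19.2 CPM (log2 fold change 5.47). For these genes, as for *Hc*, the low group sits so near the floor that the fold depends on few counts. *Hsd11b1*, which makes active glucocorticoid from its inactive form, was at 4.03, 3.50 and 3.35 CPM against 27.4 and 40.7 CPM. *Muc13*, a membrane mucin, was at 26.3, 16.8 and 25.2 CPM against 207 and 237 CPM. Both were several-fold higher in either library labelled on than in any labelled off, with log2 fold changes of 3.23 and 3.29.

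The other leading higher genes were *Shisa2* (2.54), which encodes an inhibitor of Wnt and FGF receptor maturation, *Wnt5b* (2.74), a ligand of noncanonical Wnt signaling, the basement membrane gene *Nid2* (2.90), and *C1ra* (2.78) and *Tgfbr3* (1.30), which are described with their groups. Adjusted p over the 12 was 0.00325 to 0.00496 in edgeR, and all 12 stayed called whichever library was left out. *Serpinb9g*, singled out after its values were seen, had the largest fitted fold of all called genes, which rests on few counts in the libraries labelled off. It was at 0.0593, 0.0574 and 0.239 CPM against 11.1 and 33.6 CPM (log2 fold change 7.48, SE 0.74). Its family has near-identical copies, and reads may have been split between them.

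**Figure D2:**
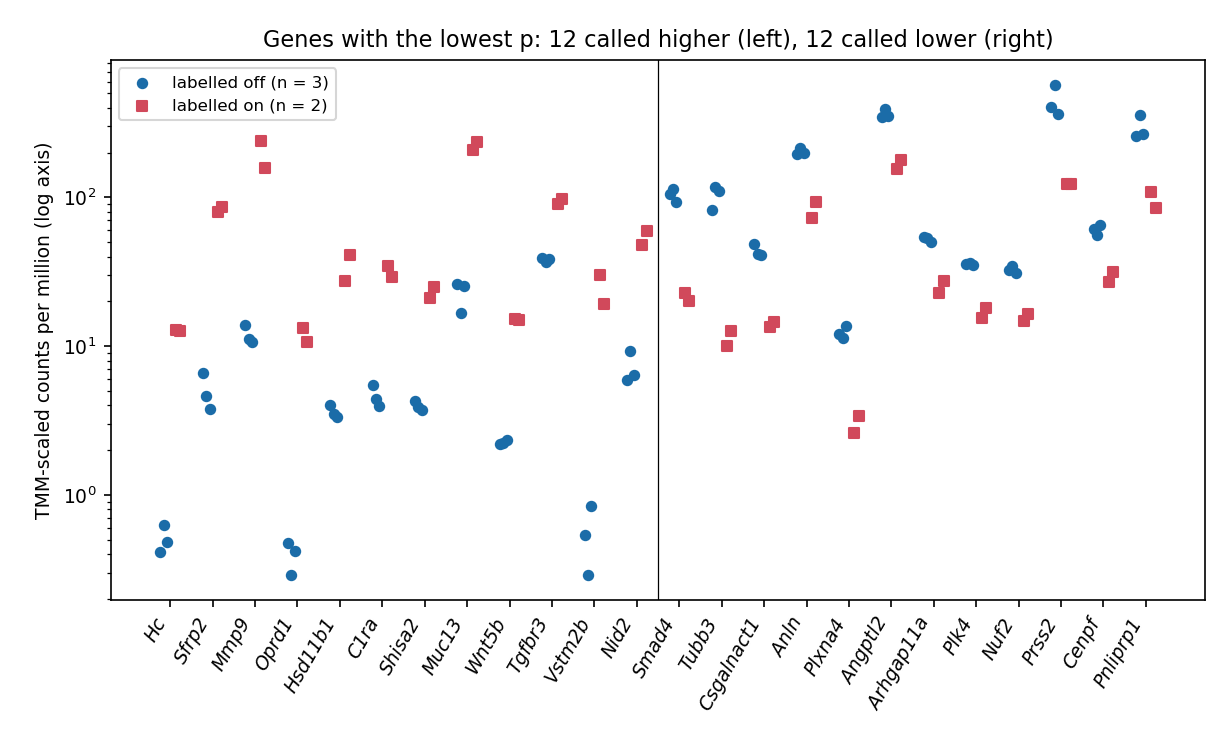
TMM-scaled CPM on a log axis in each of the 5 libraries for the 12 genes called higher and the 12 called lower with the lowest p and a mean of at least 5 CPM in the higher group. Circles are the 3 libraries labelled off and squares the 2 labelled on, and no gene shown has overlapping groups.

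Among the lower genes, *Tubb3* stood next to *Smad4*. *Tubb3* encodes the β-tubulin of neurons, which many carcinomas also express (ENSMUSG00000062380, chr8:123411424-123422015). It was at 81.7, 117 and 110 CPM in the libraries labelled off and at 9.99 and 12.6 CPM in those labelled on, a log2 fold change of -3.18 (SE 0.21; adjusted p = 0.00366 in edgeR). This was the largest change among the 12 leading lower genes. *Csgalnact1*, which starts chondroitin sulfate chains, was at 48.3, 41.8 and 41.3 CPM against 13.5 and 14.5 CPM (log2 fold change -1.64).

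*Plxna4*, a semaphorin co-receptor, was at 12, 11.4 and 13.6 CPM against 2.61 and 3.40 CPM (-2.03). *Angptl2*, a secreted glycoprotein, was at 345, 392 and 354 CPM against 156 and 178 CPM (-1.12). Both changes were larger than the spread within either label. Of the other 7, *Anln* (-1.29), which encodes the cytokinesis scaffold anillin, *Arhgap11a* (-1.07), *Plk4* (-1.08), the kinase of centriole duplication, the kinetochore gene *Nuf2* (-1.07) and *Cenpf* (-1.05) act in cell division, and *Prss2* (-1.86) and *Pnliprp1* (-1.61) are acinar genes. Of the 12, *Smad4* and *Tubb3* stayed called whichever library was left out, *Csgalnact1* lost the call in 1 such fit, without the first library labelled on, and the other 9 lost it in 2 or 3, always without that library.

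Cell division genes lay on the lower side. All 27 G2 and mitosis genes had negative log2 fold changes, and 26 of them had both libraries labelled on below all labelled off, where 21.7% of all genes tested did. The adjusted p was under 0.05 in 11 of them, as it was, on the lower side, in 130 of all genes tested (0.9%), and 7 were called lower (background 0.374%): *Kif20b*, *Bub1*, *Ttk*, *Kif11*, *Cenpf*, *Top2a* and *Ccna2*. The median was -0.89. Summed over the list, the level was 1950 to 2134 CPM in the libraries labelled off and 907 and 1282 CPM in those labelled on. The calls rest on single libraries: none of the 7 remained without the first library labelled on or without the third labelled off, and 4 members were called without the second labelled on.

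*Top2a*, the topoisomerase that untangles replicated chromosomes, was at 324, 328 and 332 CPM against 137 and 181 CPM, a log2 fold change of -1.04 (SE 0.14; adjusted p = 0.0306 in edgeR). *Ccna2*, the cyclin A gene, was at 93.2, 95.0 and 104 CPM against 39.9 and 55.6 CPM (-1.03). In both genes, the first library labelled on was the lower of the pair. *Kif11*, which encodes the motor that separates the spindle poles, was at 67.3, 55.4 and 54.5 CPM against 23.9 and 30.2 CPM (-1.13). The checkpoint kinase gene *Bub1* was at 34.9, 37.1 and 34.0 CPM against 11.5 and 18 CPM (-1.26), and *Ttk*, another kinase of the spindle checkpoint, was at 16.5, 16.2 and 15.0 CPM against 6.84 and 6.63 CPM (-1.24). Ki-67 (*Mki67*) stayed just under the fold threshold, at 305, 271 and 292 CPM against 121 and 171 CPM (-0.99, adjusted p = 0.0397 in edgeR). Outside the list, and chosen after their values were seen, the kinetochore gene *Knl1* (-1.65) and the cell-cycle transcription factors *E2f7* (-1.33) and *Mybl2* (-1.31) were also called lower.

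Promoters of late cell-cycle genes are known for a cell-cycle homology region, TTTGAA or TTCAAA on the other strand, and for CCAAT boxes, CCAAT or ATTGG on the other strand. Of the 23 promoters found for 27 G2 and mitosis genes, 19 (82.6%) hold a CCAAT box, and 8 (34.8%) hold the homology region. The shares were 34.9% and 10.8% over the promoters of genes tested. The SMAD box was in 6 of the 23 (26.1%). Of 6 called members with an entry, *Top2a* and *Kif11* hold both motifs, and they were chosen for display after the search, with both motifs in capitals:
Top2a (chr11:99024190-99024439, minus strand): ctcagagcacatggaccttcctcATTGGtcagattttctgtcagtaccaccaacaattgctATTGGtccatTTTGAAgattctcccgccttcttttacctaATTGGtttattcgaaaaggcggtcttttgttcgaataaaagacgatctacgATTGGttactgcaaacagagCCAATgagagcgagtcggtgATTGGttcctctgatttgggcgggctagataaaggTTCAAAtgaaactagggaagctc
Kif11 (chr19:37376132-37376381, plus strand): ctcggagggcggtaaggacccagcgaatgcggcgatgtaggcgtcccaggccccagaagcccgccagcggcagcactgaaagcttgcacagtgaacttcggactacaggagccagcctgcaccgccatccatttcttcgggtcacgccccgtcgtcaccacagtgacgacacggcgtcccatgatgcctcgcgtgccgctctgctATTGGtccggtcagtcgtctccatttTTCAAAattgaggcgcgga
The *Top2a* window holds 6 CCAAT boxes and 2 copies of the homology region, and that of *Kif11* holds 1 of each.

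Genes of DNA replication lay on the same side by smaller amounts. Of 25 S-phase genes, 24 had negative log2 fold changes and 21 had both libraries labelled on below (background 21.7%), with a median of -0.60. None passed the 2-fold threshold with an adjusted p under 0.05, and 8 had an adjusted p under 0.05 at a smaller fold (background 0.9% at any fold). *Uhrf1*, which couples replication to DNA methylation, was at 93.9, 90.0 and 92.8 CPM against 50.6 and 54.3 CPM (-0.81, adjusted p = 0.0181 in edgeR). The replicative helicase gene *Mcm5* was at 129, 104 and 104 CPM against 62.1 and 60.7 CPM (-0.87, adjusted p = 0.0331). The groups of both genes were far apart against the spread within a label. The cyclin-dependent kinase inhibitors, which stop the cycle, did not pass: of 6 tested, 0 were called, and *Cdkn1a* (0.40), *Cdkn1b* (0.07) and *Cdkn1c* (0.35) had adjusted p of 0.342, 0.774 and 0.546. *Ccnd1*, the cyclin of G1 and a RAS-MAPK output, had a log2 fold change of -0.71 (adjusted p = 0.092).

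The TGFβ pathway lists held 1 call besides *Smad4*. It was 1 of 12 ligands, receptors and latent binders (background 0.956%). *Tgfbr3*, the co-receptor betaglycan, was at 39.4, 36.7 and 38.4 CPM in the libraries labelled off and at 90.8 and 97.4 CPM in those labelled on, a log2 fold change of 1.30 (SE 0.09; adjusted p = 0.00366 in edgeR). The ligand gene *Tgfb2* was at 73.7, 73.1 and 63.7 CPM against 135 and 115 CPM (0.83, adjusted p = 0.031), under the 2-fold threshold. Neither gene overlapped between labels. The receptor genes *Tgfbr1* and *Tgfbr2* had log2 fold changes of 0.11 and 0.50 and the ligand genes *Tgfb1* and *Tgfb3* -0.08 and 0.18, with adjusted p of 0.156 to 0.704.

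Feedback regulators, which TGFβ induces and which damp it, held 0 called of 12 (median -0.10). The inhibitory *Smad7* was at 135, 119 and 155 CPM against 138 and 119 CPM, and *Skil* at 174, 164 and 174 CPM against 183 and 160 CPM, so their labels overlapped. Of 20 common TGFβ target genes, 0 were called, 15 had positive and 5 negative log2 fold changes (median 0.33), and 6 had both libraries labelled on above and 3 below, against 21.7% of genes tested in either direction. *Fn1*, the fibronectin gene, was at 12899, 11873 and 16980 CPM against 9723 and 9265 CPM (-0.55, adjusted p = 0.169). *Id1*, a BMP target, was at 41.8, 24.3 and 37.9 CPM against 34.8 and 39.0 CPM (0.09, adjusted p = 0.852). Of 19 activin and BMP pathway genes, 0 were called, and the ligand gene *Bmp4* had a log2 fold change of 0.99 (adjusted p = 0.0482).

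The 7 fibrogenic genes that the study names for its liver and lung metastases held 0 called, with a median of -0.54. The hyaluronan synthase gene *Has2* was at 41.4, 51.0 and 41.9 CPM against 23.9 and 21.9 CPM (-0.97, SE 0.14; adjusted p = 0.031 in edgeR), short of 2-fold. *Col6a1* lay on the other side, at 1041, 1204 and 1222 CPM against 2447 and 2022 CPM (0.95, adjusted p = 0.0343). The cytokine gene *Il11* was at 14.3, 6.89 and 5.92 CPM against 3.22 and 3.29 CPM (-1.47, adjusted p = 0.119). So the members did not share a direction. *Itga5*, the fibronectin receptor subunit, had a log2 fold change of -0.68, *Ccbe1* -0.54 and *Wisp1* -0.21, with adjusted p of 0.065 to 0.722. The sign of *Wisp1* turned without the third library labelled off (0.13). The transcription factor genes *Klf4* and *Runx1* had log2 fold changes of 0.43 and -0.21 (adjusted p = 0.242 and 0.335).

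**Figure D3:**
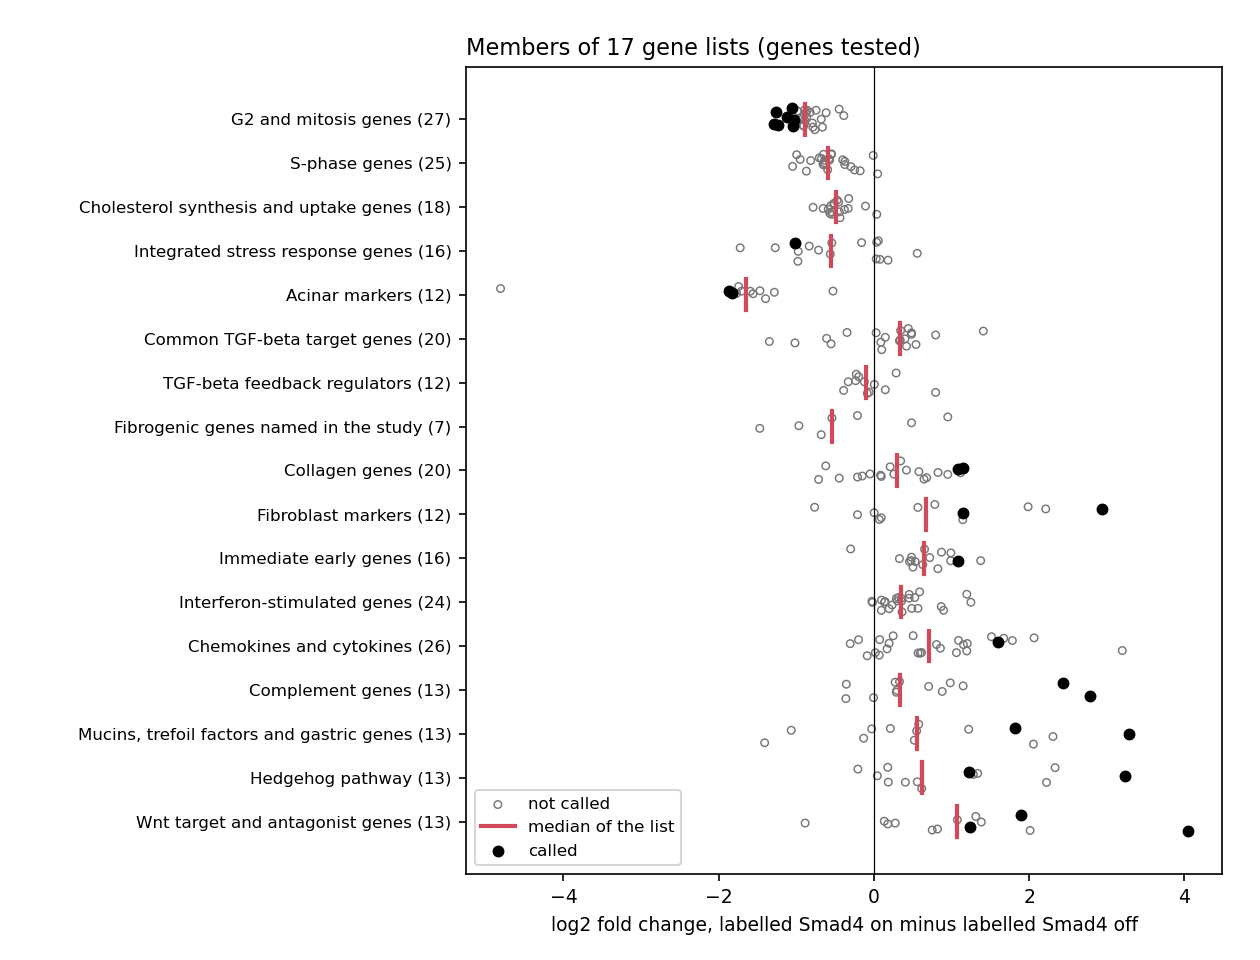
Each point is a gene, with its log2 fold change of labelled Smad4 on minus labelled off on the x axis and its list on the y axis, the number of genes tested in brackets. Filled points were called, open points were not, and the bars are list medians, from -1.65 in acinar markers to 1.08 in Wnt genes.

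Wnt genes had the highest median of the pathway lists, 1.08. Of 13 Wnt target and antagonist genes, 3 were higher (background 0.956%), and 9 had both libraries labelled on above (background 21.7%). The called members do different things: *Axin2* is a target and inhibitor of canonical Wnt signaling, and *Sfrp2* and *Dkk3* are secreted proteins of antagonist families. *Axin2* was at 22.6, 27.6 and 22 CPM against 62.3 and 51.0 CPM (log2 fold change 1.23, SE 0.15; adjusted p = 0.0189 in edgeR), and *Dkk3* at 4.39, 2.75 and 5.14 CPM against 19.2 and 11.3 CPM (1.90). *Lgr5*, another target, was at 15.8, 15.9 and 26.6 CPM against 41.5 and 40.4 CPM (1.08, adjusted p = 0.0775). Without the first or the second library labelled on, *Sfrp2* alone stayed called, and *Dkk3* lost the call whichever library was left out. DESeq2 called 5 of the 13 higher.

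Hedgehog genes held 2 higher of 13 tested (background 0.956%), and 6 had both libraries labelled on above (background 21.7%), with a median of 0.62. *Gli2*, a transcription factor of the pathway, was at 2.67, 5.22 and 5.09 CPM against 44.0 and 37.4 CPM (3.23, SE 0.28; adjusted p = 0.0094 in edgeR). *Cdon*, a Hedgehog co-receptor, was at 80.5, 98 and 61.4 CPM against 206 and 167 CPM (1.22, adjusted p = 0.046). The pathway's target genes *Gli1* (2.22) and *Ptch1* (0.41) had adjusted p of 0.0711 and 0.299. *Notch3* was the called member of 11 Notch genes (background 0.956%), at 22.6, 14.9 and 20.8 CPM against 44.2 and 44.5 CPM (1.19, adjusted p = 0.0333). *Gli2* lost the call without the first library labelled on, *Notch3* without either labelled on or the third labelled off, and *Cdon* without any library but the second labelled off.

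Called genes of the matrix lists were 2 collagens, a laminin chain and a metalloproteinase, and *Nid2*, given above, is on none of these lists. Of 20 collagen genes, 2 were higher (background 0.956%), 7 had both libraries labelled on above and 0 below (background 21.7% each way), and the median was 0.30. *Col3a1*, the fibrillar collagen III gene, was at 7363, 5282 and 6724 CPM against 14241 and 14431 CPM (1.15, SE 0.18; adjusted p = 0.0354 in edgeR). *Col6a2* was at 546, 713 and 760 CPM against 1550 and 1313 CPM (1.09, adjusted p = 0.0363). These 2 stood apart between labels, whereas *Col1a1* was at 5192, 4833 and 5073 CPM against 5245 and 3448 CPM. *Col6a2* lost the call whichever library was left out, and *Col3a1* without any but the first labelled off. *Lama2*, a laminin chain of muscle and nerve basement membranes, was at 6.04, 6.83 and 4.07 CPM against 55.9 and 35 CPM (3.00, adjusted p = 0.0122), the called one of 10 laminin genes, and lost the call without the first library labelled on. *Mmp9* was the called one of 14 metalloproteinase and inhibitor genes, and 0 of 17 integrin genes were called (median -0.34). Of 21 proteoglycan and hyaluronan genes, 0 were called.

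The list of fibroblast markers shares 3 collagen genes with the matrix lists. Of 12 such markers tested, *Col3a1* and *Pdgfra*, a growth factor receptor gene of fibroblasts, were higher (background 0.956%), 7 had both libraries labelled on above (background 21.7%), and the list's summed level was 12839 to 18200 CPM in the libraries labelled off and 24364 to 25739 CPM in those labelled on. *Col3a1* made up 90.4% of the rise of the mean sum, and without it the sums overlapped, at 10606, 7558 and 11477 CPM against 11498 and 9933 CPM. Without the 3 shared collagen genes, the 9 other markers summed to 1724, 2271 and 2384 CPM against 3614 and 3312 CPM, which did not overlap. These subsets were chosen after seeing the data. *Pdgfra* was at 18.4, 45.7 and 25.3 CPM against 161 and 295 CPM (2.93, SE 0.46; adjusted p = 0.0499 in edgeR), and lost the call without any library but the second labelled off. Not all markers shared this: the smooth muscle actin gene *Acta2* was at 853, 1017 and 1183 CPM against 774 and 425 CPM, and *Thy1* had 387 CPM in the third library labelled off against 23.3 and 20.7 CPM in the other two and 169 and 132 CPM in those labelled on. All 12 markers on the list passed the filter on counts, so none could be at 0 in all libraries. Sorted tumor cells that express these genes and fibroblasts that passed the sort cannot be told apart from the sums, and their part in the matrix result was not tested. The same holds for fewer cells of a type and less RNA per cell throughout.

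Identity genes held no calls. Of 17 epithelial genes tested, 0 were called (median 0.26), and their sum was 3200 to 4596 CPM against 4346 to 5317 CPM, so the labels overlapped and epithelial markers were present in all 5 libraries. *Krt19*, a keratin of ducts, was at 786, 521 and 605 CPM against 684 and 1110 CPM. Of 8 EMT transcription factors, 0 were called, and *Snai2*, the Slug gene, was at 19.3, 12.8 and 17.1 CPM against 8.78 and 6.97 CPM (-1.06, adjusted p = 0.0663 in edgeR). Of 12 mesenchymal genes, 0 were called (median -0.23), 5 had both libraries labelled on below and 2 above (background 21.7% each way), and the sums did not overlap, at 23402 to 29395 CPM against 19557 to 20724 CPM. *Fn1*, given above, and *Vim*, the vimentin gene, are its most abundant members on the lower side, whereas the sum of the fibroblast markers was higher.

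Mucin and gastric-type genes held 2 higher of 13 (background 0.956%). *Muc13* has been given above. *Tff2*, a trefoil peptide that mucous cells secrete with mucin, was at 37.7, 31.0 and 45.3 CPM against 147 and 122 CPM (1.82, SE 0.17; adjusted p = 0.00944 in edgeR). *Tff3* was at 2.31, 1.66 and 2.45 CPM against 12.3 and 5.56 CPM (2.06, adjusted p = 0.0532). Other members lay on the other side of 0, such as *Anxa10* (-1.41) and *Ctse* (-1.07), with adjusted p of 0.332 and 0.335. *Tff2* lost the call without the first library labelled on. *Muc13* stayed called in every fit that left out 1 library.

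Acinar genes lay on the lower side together. All 12 acinar markers tested had both libraries labelled on below (background 21.7%), the median was -1.65, and 2 were called lower (background 0.374%). *Prss2*, a trypsinogen gene, was at 405, 574 and 364 CPM against 122 and 124 CPM (-1.86, SE 0.22; adjusted p = 0.0189 in edgeR), and the chymotrypsinogen gene *Ctrb1* at 938, 1241 and 775 CPM against 256 and 299 CPM (-1.83, adjusted p = 0.0224). The list's sum was 2358 to 3816 CPM in the libraries labelled off and 1003 to 1259 CPM in those labelled on. These genes belong to the digestive-enzyme cells of the host pancreas, and whether RNA of such cells was carried into the sort was not tested. Neither call held without the first or without the second library labelled on, where 0 members were called, and 1 was called without the first labelled off and 5 without the third. DESeq2 called 9 of the 12 lower, as did a fit blocked on crossed mouse numbers that was added after seeing the data. Trypsinogen genes have near-identical copies (*Prss2*, *Try4*, *Try5* and *Try10*), so the split of reads between them is uncertain. With all markers of other cell types left out, a setting chosen after seeing the data, 137 genes were higher and 53 lower.

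The remaining marker lists were low. Summed leukocyte markers were at 151 to 247 CPM against 208 to 254 CPM, endothelial markers at 50.2 to 59.6 against 47.8 to 58.5, islet markers at 27.2 to 49.7 against 20.5 to 46.1, and erythroid markers at 10.4 to 43.3 against 13.7 to 27.0. Markers of stellate cells, pericytes and nerve were at 137 to 242 against 97.2 to 141 CPM. All these ranges overlapped, with 0 genes called, though 6 of 9 endothelial markers had both libraries labelled on below (background 21.7%; median -1.02). *Ptprc* (CD45), the pan-leukocyte gene, was at 5.39, 2.70 and 3.77 CPM against 3.15 and 4.31 CPM.

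**Figure D4:**
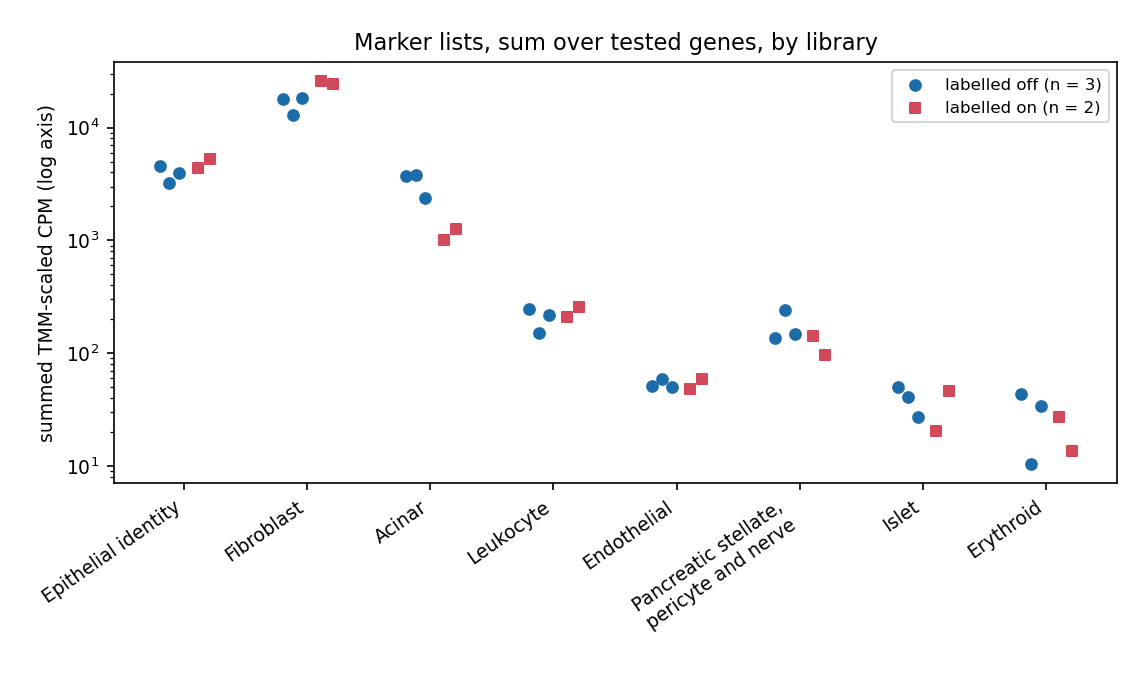
Summed TMM-scaled CPM on a log axis over the tested genes of 8 marker lists, in each of the 3 libraries labelled off (circles) and the 2 labelled on (squares). Fibroblast markers lie higher (24364 to 25739 CPM) and acinar markers lower (1003 to 1259 CPM) in the libraries labelled on, and of the other 6 lists all overlap.

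Secreted immune genes lay mostly on the higher side. Of 13 complement genes, *C1ra* and *C1s1*, the proteases of the classical pathway's first component, were higher (background 0.956%), and 6 had both libraries labelled on above (background 21.7%). *C1ra* was at 5.45, 4.42 and 3.95 CPM against 34.3 and 29.0 CPM (2.78, SE 0.19; adjusted p = 0.00332 in edgeR), and *C1s1* at 5.81, 3.96 and 2.21 CPM against 23.3 and 20.2 CPM (2.44, adjusted p = 0.0354). *C1ra* stayed called whichever library was left out, and *C1s1* lost the call without any but the first labelled off. *C1qa*, a macrophage gene of the same complex, was at 22, 17.3 and 24 CPM against 14.2 and 18.7 CPM (-0.36, adjusted p = 0.331).

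Of 26 chemokine and cytokine genes, 15 had both libraries labelled on above (background 21.7%), the median was 0.71, and 1 was called higher (background 0.956%). *Csf3*, the granulocyte growth factor gene, was at 2.31, 2.01 and 1.79 CPM against 7.04 and 5.33 CPM (1.6, SE 0.28; adjusted p = 0.0436 in edgeR), and lost the call whichever library was left out. The neutrophil chemokine gene *Cxcl5* had a log2 fold change of 2.06 (adjusted p = 0.0651). *Il10*, an anti-inflammatory cytokine gene that is not on the list, was at 3.44, 2.58 and 2.15 CPM against 19.2 and 27.7 CPM (3.10, SE 0.26; adjusted p = 0.00681). *Il10* stayed called whichever library was left out, and the sums of leukocyte markers overlapped between labels. Of 24 interferon-stimulated genes, 22 had positive log2 fold changes, but 2 had both libraries labelled on above and 0 were called (median 0.35).

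Immediate early genes, which mitogens and cell handling induce within minutes, lay on the higher side as a list: 15 of 16 had both libraries labelled on above (background 21.7%) and a positive log2 fold change, with a median of 0.64. Of these, 1 was called higher (background 0.956%). *Zfp36*, which encodes an mRNA-destabilizing protein, was at 965, 750 and 845 CPM against 2006 and 1600 CPM (1.08, SE 0.16; adjusted p = 0.0333 in edgeR), and lost the call without any library but the first labelled off. The list's sum was 9553 to 12360 CPM against 16896 to 20218 CPM. *Egr2* was at 44.5, 44.7 and 45.2 CPM against 90.6 and 73.3 CPM (0.87, adjusted p = 0.0275). *Fos* was at 3138, 2117 and 2739 CPM against 4396 and 3980 CPM (0.65, adjusted p = 0.114). The exception was *Fosl1* (-0.30).

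Metabolic lists lay mostly on the lower side. Of 16 genes of the integrated stress response, which makes amino acids when they run short, 6 had both libraries labelled on below (background 21.7%), the median was -0.55, and *Psat1*, an enzyme of serine synthesis, was called lower (background 0.374%). *Psat1* was at 113, 129 and 102 CPM against 48.3 and 64.4 CPM (-1.02, SE 0.16; adjusted p = 0.0361 in edgeR), and lost the call whichever library was left out. *Asns*, the asparagine synthetase gene, was at 68.4, 72.9 and 68.8 CPM against 36.7 and 34.6 CPM (-0.98, adjusted p = 0.0106), just under 2-fold. *Atf4*, the transcription factor gene of the response, was at 413, 524 and 442 CPM against 439 and 384 CPM (-0.16, adjusted p = 0.557).

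Of 18 cholesterol synthesis and uptake genes, 17 had negative log2 fold changes and 15 had both libraries labelled on below (background 21.7%), with a median of -0.49 and 0 called. Of 15 fatty acid and lipid genes, 12 were negative and 0 called (median -0.47). Of 20 glycolysis and hypoxia genes, 0 were called (median -0.12). *Slc29a3*, a lysosomal nucleoside transporter gene, was at 26.4, 26.1 and 26 CPM against 105 and 72.7 CPM (1.76, SE 0.16; adjusted p = 0.00791), the called one of 9 nucleoside genes (background 0.956%), and lost the call without the third library labelled off.

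Day 14 shows which of these differences were present a week later in other hosts. It has 3 libraries labelled on and 2 labelled off, and shares no library with day 7. Those labelled off held 28557488 and 32195795 counts on genes, and those labelled on 14255679, 12555829 and 12200163. Sequencing depth therefore went with the label on day 14. Its part in the day-14 calls and in the test between the days below was not tested. Of the 138 genes higher on day 7, 63 (45.7%) were higher on day 14 too, where 3.39% of all genes tested were, and they made up 13.1% of the 482 genes higher on day 14. Of 53 lower genes that could be tested, 9 (17%) were lower on day 14 (background 1.26%, or 4.64% for both directions), 5.03% of the 179 lower there. By sign alone, 120 of the 138 and 49 of the 53 went the same way, where 52.2% of all genes tested on day 14 were positive and 47.8% negative. Day-14 counts with a library left out, here and below, are out of the genes that this fit called on day 7, which were fewer. The first count fell to 17 without the first library labelled on of day 7, 30 without the second, 19 without the third labelled off and 40 without the second labelled off. The count of lower genes was 2 without the first library labelled on, 3 without the second and 3 without the third labelled off.

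Secreted and mucin genes were among those called on both days. *Sfrp2* was at 4.43 and 5.07 CPM in the libraries labelled off on day 14 and at 48.8, 54.3 and 61.2 CPM in those labelled on (log2 fold change 3.52). *Tff2* was at 54.6 and 54.8 CPM against 364, 440 and 429 CPM (2.91). *Muc13*, *Gli2*, *C1ra*, *C1s1*, *Oprd1*, *Vstm2b* and *Slc29a3* were also called higher on both days, with day-14 log2 fold changes of 1.68 to 5.20. Of the leading higher genes, *Hsd11b1* (0.41), *Tgfbr3* (0.39) and *Mmp9* (2.99) were not called on day 14. Their adjusted p there was 0.561, 0.511 and 0.071 in edgeR. *Smad4* was lower on both days, by -2.28 and -2.31, and *Angptl2* and *Csgalnact1* were lower on both.

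The cell division lists held no calls on day 14. There, G2 and mitosis genes had a median of -0.13 with 0 of 27 called, S-phase genes -0.16 with 0 of 25, and immediate early genes -0.09 with 0 of 16. The G2 and mitosis genes called on day 7 all had lower levels in the libraries labelled off on day 14 than on day 7. *Top2a* was at 184 and 156 CPM in those of day 14, against 324 to 332 CPM in those of day 7. The acinar markers had a median of -0.17, with 1 called lower. *Prss2* was at 144 and 438 CPM against 296, 323 and 246 CPM on day 14, so its labels overlapped there. *Col3a1* (0.04), *Axin2* (-0.37), *Notch3* (-0.10) and *Cdon* (-0.18) had adjusted p of 0.175 to 0.953 on day 14. These pairs of values do not show that a response differed, which needs its own test.

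**Figure D5:**
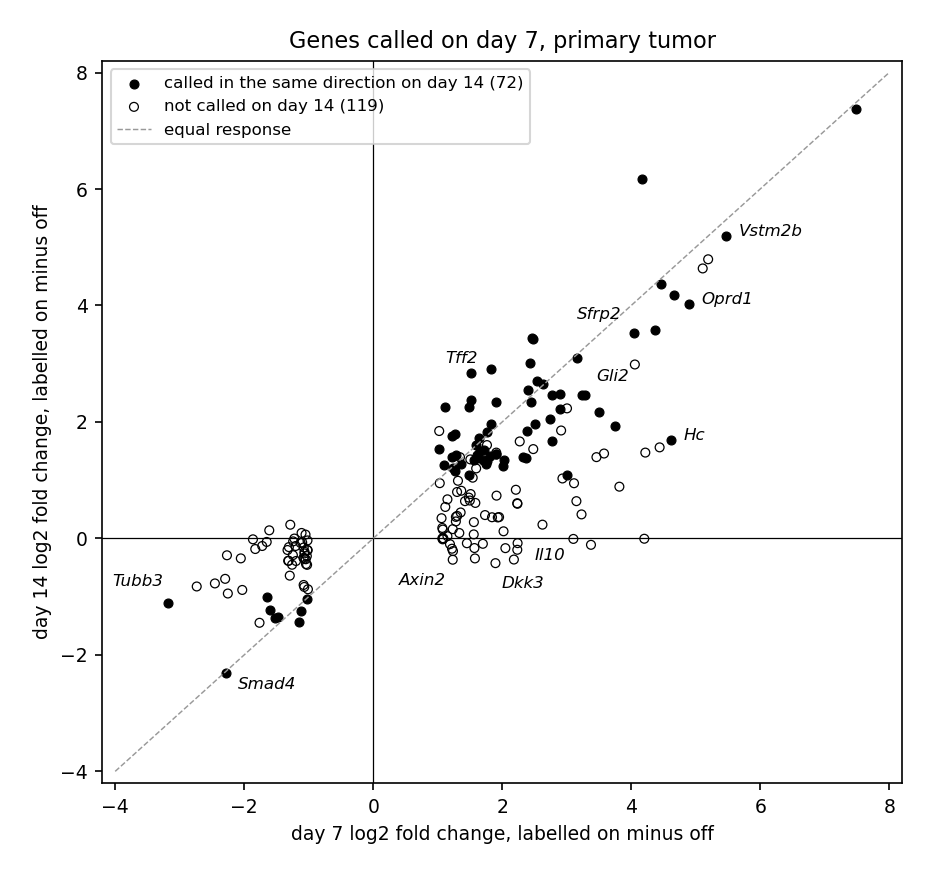
Log2 fold changes of labelled Smad4 on minus labelled off on day 7 (x axis) and day 14 (y axis) for the 191 genes called on day 7 and tested on day 14, with the line of equal response. Filled points (72) were called in the same direction on day 14, among them *Sfrp2*, *Oprd1* and *Vstm2b* near the line, whereas *Il10* lies near 0 on day 14.

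The change of response between the days was tested by the interaction of label and day in edgeR. It passed a 2-fold difference and an adjusted p under 0.05 in 9 of 15093 genes (0.0596%; 2311 at an unadjusted p under 0.05), and in no member of the G2 and mitosis list. *Tubb3* was at 36.5 and 41.3 CPM against 18.2, 20.6 and 15.4 CPM on day 14, a smaller difference than on day 7 (interaction 2.09, adjusted p = 0.0307). *Hc* was at 3.48 and 2.19 CPM against 7.90, 8.47 and 11 CPM, also smaller (interaction -2.93, adjusted p = 0.0352). *Il10* was at 18.7 and 14.6 CPM against 12, 20.9 and 16.8 CPM on day 14, so its labels overlapped there (interaction -3.10, adjusted p = 0.0305). *Egr2* turned, from higher in both libraries labelled on to 83.5 and 79.6 CPM against 40.3, 48.3 and 34.3 CPM (interaction -1.85, adjusted p = 0.0216). *Sgk1*, a glucocorticoid-induced kinase gene, turned likewise (interaction -1.22, adjusted p = 0.0216). Levels of these genes in the libraries labelled off moved between the days as well. *Apcdd1*, *Cirbp* and *Smg6* were also among the 9. Without the first library labelled on, 2 genes passed, without the second 29, and without the second library labelled off 22.

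Metastases on day 7 came from other injections. Liver metastases (3 libraries labelled on, 2 off) arose from 400000 cells injected into the spleen, with Dox withdrawn after 5 weeks by the label, and lung metastases (2 on, 4 off) from 250000 cells injected into the tail vein, with Dox withdrawn after 6 weeks. Organ, route, cell number and time cannot be told apart in these comparisons.

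In the lung, 0 of 15193 genes were called (366 higher, 2.41%, and 427 lower, 2.81%, at an unadjusted p under 0.05 in edgeR). Of the genes called in the primary tumor, 59 of 128 higher and 35 of 47 lower genes had the same sign there (50.4% and 49.6% of all genes tested had these signs), and the spread was larger (biological coefficient of variation 0.401 against 0.198). No gene of 15944 passed the interaction of organ and label (1672 at an unadjusted p under 0.05; 191 with DESeq2). In the liver, 86 of 132 higher and 49 of 51 lower genes had the same sign (46.4% and 53.6% of all genes tested), with a median log2 fold change of -1.06 over the lower ones. There, 2 of 132 higher and 3 of 51 lower genes were called in the same direction (background 0.181% and 0.262%, 0.444% together). The lower ones were *Smad4*, *Plxna4* and *Gzme*, and the higher ones *Wnt4* and the predicted gene *Gm37711*, of which all but *Smad4* and *Plxna4* were named after their values were seen.

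Response in the liver differed from that in the primary tumor in 133 of 16344 genes (0.814%; 20.4% at an unadjusted p under 0.05) by the interaction in edgeR, with 3 of the 138 higher and 2 of the 54 lower genes among them. *Il10* was higher in the primary tumor (3.10) and had a log2 fold change of -2.74 in the liver (interaction -5.75, adjusted p = 0.0391). *Angptl2* was lower in the primary tumor (-1.12) and had -3.76 in the liver (interaction -2.56, adjusted p = 0.0493). The other 3 were *Matn4*, *Stra6* and *AA467197*. With any 1 primary tumor library left out, 0 genes passed. The spread in the liver libraries was also larger (biological coefficient of variation 0.455).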

How the data were processed

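RNA was polyA-selected from sorted mKate2+ cells (TruSeq Stranded mRNA, 15 PCR cycles, 75 bp single-end reads). The authors trimmed reads with Trimmomatic 0.36, aligned them to GRCm38 with STAR 2.5.3a and counted them per gene with featureCounts 1.6.3, after FastQC 0.11.5 (per the submitters' processing notes), and the strand setting of counting is not given in the sources used here. The deposited values are raw counts for 53465 genes, not normalized, with 0 unmapped columns. Genes passing filterByExpr (minimum count 10, minimum total 15) were scaled by TMM and fitted with edgeR 4.0.16 (glmQLFit, robust) in R 4.3.3, using the 5 libraries of the comparison. Standard errors were derived from the fold change and the F statistic. A gene was called where levels differed more than 2-fold with a p, adjusted by Benjamini-Hochberg, under 0.05, as in the study. Named genes were *Smad4*; the 12 called genes per direction with the lowest p, at least 5 CPM in the higher group and no overlap, predicted genes left out; called list members; genes the study names; and the 5 genes with the lowest interaction p. Other genes given as examples, among them all uncalled list members outside this rule, were chosen after their values were seen, and some genes under the rule are not reported here. Members, lists and tests were chosen with earlier results of these data known, so no pattern here is independent support. The fits were tested on simulated data. Alternatives were DESeq2 1.42.0, other filters, scaling, blocks and pooled fits, a test against 2-fold, and leaving out each library. Promoters, the 250 bases before each start, came from RefSeq, with chromosome 18 left out, and were searched with Python 3.11.15.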

Additional observations from a re-analysis of the deposited data

Results flagged for a closer look

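Between the days of the primary tumor, 5 named genes were picked out because the response itself differed by the interaction test in edgeR. The response of day 14 minus day 7, on the log2 scale, was -2.93 in *Hc* (adjusted p = 0.0352), 2.09 in *Tubb3* (0.0307), -3.10 in *Il10* (0.0305), -1.85 in *Egr2* (0.0216) and -1.22 in *Sgk1* (0.0216). The *Hc* and *Tubb3* responses kept their direction and were smaller on day 14. Those of *Egr2* and *Sgk1* were 0.87 and 0.57 on day 7 and -0.99 and -0.67 on day 14. Levels in the libraries labelled off moved between the days as well, with CPM scaled separately for each day. *Tubb3* had a mean of 103 CPM there on day 7, and 36.5 and 41.3 CPM on day 14. For *Il10*, the values were 2.72, then 18.7 and 14.6 CPM, and for *Egr2* 44.8, then 83.5 and 79.6 CPM. What moved these levels was not tested.

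Between liver metastases and the primary tumor on day 7, 3 named genes differed by the same kind of test. The response of the liver minus that of the primary tumor was -5.75 in *Il10* (adjusted p = 0.0391), -2.56 in *Angptl2* (0.0493) and -3.10 in *Sgk1* (0.0304). The liver comparison has 1 paired-end library in its group labelled off, and none of these 3 passed when any 1 primary tumor library was left out.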

How the results depend on the processing

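With 2 and 3 libraries, the number of calls depended on the processing. All 138 higher and 54 lower genes kept their sign under each alternative in which they were tested. Their groups did not overlap in these same libraries, so the sign could hardly turn, and this adds no support for the direction. DESeq2 called 352 genes higher and 165 lower, no filter 400 and 149, a single fit of the 4 primary tumor groups 361 and 127, and a single fit of 12 groups 38 and 4. A test against a 2-fold change called 25 and 2, and no fold threshold gave 130 lower genes. Leaving out each library gave 21 to 110 higher and 2 to 52 lower genes. A replicate block on mouse numbers also leaves out the third library labelled off, whose number has no partner, a step that alone gave 33 and 14 calls; with both changes, 0 genes were higher and 0 lower (986 and 976 at an unadjusted p under 0.05). The deviations of same-numbered libraries from their group means correlated by -0.11 and -0.23. With 2 libraries labelled on, their deviations mirror each other, so these signs cannot decide whether the numbers pair the libraries. A crossed pairing, for which the mirrored correlations are 0.11 and 0.23, was added after seeing the data. Fitted on the same 4 libraries, it gave 145 and 81.

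The interaction with day gave 204 genes with DESeq2, 1 with the replicate block and 2 to 29 with each library left out. That of the lungs gave 191 with DESeq2. That of the liver gave 1459 with DESeq2, 0 with the replicate block, 215 without the paired-end liver library and 0 with any primary tumor library left out. The look-up on day 14 gave 153 higher and 22 lower genes with DESeq2, 17 to 59 higher and 2 to 13 lower with each library left out. *Wisp1* turned to 0.12 with the replicate block, 0.12 with the crossed block and 0.13 without the third library labelled off (-0.39 to 0.13 with each library left out), and *Id1* to -0.12 without the second labelled off (-0.12 to 0.25). For each of these changes other than fewer samples, the cause was not tested. With 14950871 to 17906083 counts a library, unscaled levels under 0.168 to 0.201 CPM fall under the floor of 3 counts.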

Other observations

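Other lists held 0 called genes in edgeR on day 7. Of 11 genes of MHC class I antigen presentation, 5 had both libraries labelled on above and 1 below (background 21.7% each way), with a median log2 fold change of 0.25, and their sum was 1164 to 1511 CPM in the libraries labelled off and 1384 to 1589 CPM in those labelled on. Of 16 p53 target genes, 9 had positive and 7 negative log2 fold changes (median 0.04). The 13 members of the BCL2 family, which set the threshold for apoptosis, had a median of 0.15, the 11 EGF receptor ligands and ERBB receptors 0.12, the 14 RAS-MAPK output genes 0.06, and the 16 pancreatic and foregut transcription factors 0.11. Over all genes tested, the median was 0.01.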
